A study of Mus musculus with 4 samples.

Results

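The 8 genes described here encode the insulin-like growth factors (IGFs) Igf1 and Igf2, their signalling receptor Igf1r, and the IGF binding proteins Igfbp3, Igfbp4, Igfbp5, Igfbp6 and Igfbp7. They were taken by symbol from the 32285 genes counted in single cells from the stromal vascular fraction (SVF) of brown adipose tissue (BAT) of mice, the cells that stay behind once the digested tissue has lost its floating adipocytes. There were 4 libraries. WT mice were 10 weeks old. The db/db mice, which carry a mutated leptin receptor gene in every cell and become obese and diabetic, were 8 weeks old (8-week db/db, marked db/db 8w in the plots) or 16 weeks old (16-week db/db, marked db/db 16w in the plots) and came from the B6.BKS(D)-Leprdb/J line. HFD mice were by the methods wild-type animals given a diet with most of its energy from fat, and their labelled age of 10 weeks is the age at which, by the methods, a diet of 10 weeks began. All labels gave the strain C57BL6/J and by the methods all mice were male and were fasted before collection. Each library was made from the pooled SVF of 3 mice, so there was 1 library per group, and mice, preparation and sequencing cannot be told apart from genotype or diet. Nor can age, which differed between WT and the db/db groups. No test between groups was therefore possible. All intervals in brackets are 95% intervals for counting error alone.

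IGF1 and IGF2 are small secreted hormones related to insulin. Both act through the receptor tyrosine kinase encoded by Igf1r, which drives growth, survival and, in preadipocytes, adipogenesis. In the extracellular space most IGF is held by binding proteins, which carry it, keep it from the receptor or release it when proteases such as pregnancy-associated plasma protein A cut them. IGFBP3 is the main carrier in blood, IGFBP4 is mostly an inhibitor, IGFBP5 attaches to extracellular matrix, and IGFBP6 prefers IGF2. IGFBP7 binds IGFs weakly and is known as a matrix protein of vessels and fibroblasts. Circulating IGF1 comes largely from liver under growth hormone, whereas fat tissue and macrophages make IGF1 of their own.

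In GRCm38 (the mm10 sequence), all 8 genes are protein coding. Igf1 lies at chr10:87858265-87937042 on the plus strand, Igf2 at chr7:142650766-142666816 on the minus strand and Igf1r at chr7:67952827-68233668 on the plus strand. Igfbp3 lies at chr11:7206086-7213923 on the minus strand, Igfbp4 at chr11:99041244-99054392 on the plus strand, Igfbp5 at chr1:72857932-72874884 on the minus strand, Igfbp6 at chr15:102144362-102149511 on the plus strand and Igfbp7 at chr5:77349240-77408041 on the minus strand. The 250 bases before the RefSeq start (build GRCm38.p6) are shown for the 3 genes on which the results turn: Igfbp3, which was nearly lost in 1 library, and Igfbp5 and Igfbp7, which were high in opposite stromal cells. The windows are chr11:7213924-7214173, chr1:72874866-72875115 and chr5:77408046-77408295, all on the minus strand and written 5′ to 3′. Capitals mark a TATA box, spelled TATAAA or in the variant form TATATA, and a GC box, spelled GGGCGG, each searched on both strands.
Igfbp3: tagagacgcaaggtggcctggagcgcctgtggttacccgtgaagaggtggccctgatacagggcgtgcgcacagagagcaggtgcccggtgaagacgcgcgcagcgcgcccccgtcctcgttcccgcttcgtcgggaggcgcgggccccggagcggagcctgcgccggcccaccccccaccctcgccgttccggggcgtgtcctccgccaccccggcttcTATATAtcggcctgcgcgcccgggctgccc
Igfbp5: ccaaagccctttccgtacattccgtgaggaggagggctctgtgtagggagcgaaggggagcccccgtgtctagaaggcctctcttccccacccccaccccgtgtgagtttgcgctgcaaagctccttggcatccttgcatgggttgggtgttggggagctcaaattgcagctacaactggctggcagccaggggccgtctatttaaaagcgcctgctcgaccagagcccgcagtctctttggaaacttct
Igfbp7: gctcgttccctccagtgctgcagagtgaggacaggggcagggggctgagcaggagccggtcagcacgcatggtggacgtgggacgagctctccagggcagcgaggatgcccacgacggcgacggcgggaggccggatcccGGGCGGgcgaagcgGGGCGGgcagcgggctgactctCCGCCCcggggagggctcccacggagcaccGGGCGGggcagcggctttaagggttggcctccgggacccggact
The Igfbp3 window held 1 TATA box, with its first base 30 bases before the start, and no GC box. The Igfbp7 window held 4 GC boxes and no TATA box, and the Igfbp5 window held neither. Of all 32851 such windows, 15.6% held a TATA box of these letters and 32.7% a GC box. The G and C bases made up 73.2% of the Igfbp3 window, 58.8% of the Igfbp5 window and 74% of the Igfbp7 window, against a median of 52.4% over all windows. These matches describe the letters only.

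After quality limits 28887 cells were kept, 5944 in WT, 11648 in 8-week db/db, 5833 in 16-week db/db and 5462 in HFD, with a median of 2733 to 6218.5 unique molecular identifiers (UMIs, counted transcript molecules) per cell. The limit on mitochondrial UMIs removed 68.5% of HFD barcodes and 1.04% of 16-week db/db barcodes. The 16-week db/db library held Xist at 207 counts per 1000000 UMIs (CPM) and 4 Y-linked genes at a summed 17.7 CPM, against Xist at most 0.688 CPM and Y-linked genes at 164 to 188 CPM in the others, although male mice are stated. The sex of the mice is thus not settled for that library, and in its comparisons sex cannot be told apart from genotype and age. Between 16 and 97 barcode strings were shared by any pair of libraries. Cells were assigned to lineages by gates on raw marker UMIs. The stromal gate (Pdgfra, Lum, Dpt and 4 further genes) took 4162, 5460, 1093 and 1464 cells in WT, 8-week db/db, 16-week db/db and HFD, and the monocyte and macrophage (Mono/MAC) gate took 1305, 3384, 2570 and 1845. Summed stromal markers were 6422 to 7801 CPM in the stromal gate and 12.0 to 209.7 CPM in the Mono/MAC gate. The endothelial gate took 1341 cells in 16-week db/db and 1304 in HFD but only 21 in WT and 90 in 8-week db/db, so endothelial cells were compared between 16-week db/db and HFD alone. Adipocytes are absent by design of the SVF, and summed adipocyte markers reached at most 58.1 CPM in a stromal gate. Over all cells of a library, fewer cells of a type and less RNA per cell cannot be told apart, and the values below are therefore mostly given within a gate.

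Over all kept cells, transcripts of the receptor and of most binding proteins were lower in the 16-week db/db and HFD libraries than in WT. Of the 7 members with at least 10 CPM in 1 of the 2 libraries compared, 5 were at least 2-fold lower in 16-week db/db (Igf1r, Igfbp3, Igfbp4, Igfbp5, Igfbp6), where 44.2% of all genes were at least 2-fold from WT in either direction (2361 of 9262 genes lower). The same 5 members were at least 2-fold lower in HFD, where 26% of genes were that far from WT in either direction (1049 of 9404 lower). In 8-week db/db Igfbp4 alone was at least 2-fold lower, where 10.7% of genes were that far from WT in either direction (424 of 8880 lower). Igf2 stayed under 10 CPM in all 4 libraries and entered none of these counts. The median log2 ratio of the members to WT was 0.06 in 8-week db/db, -2.19 in 16-week db/db and -1.80 in HFD, and that of all genes was 0.00, -0.18 and 0.14. Stromal cells made up 70.0% of kept cells in WT, 46.9% in 8-week db/db, 18.7% in 16-week db/db and 26.8% in HFD. Levels over all cells followed the order of these shares for Igf1r, Igfbp4 and Igfbp6 but not for the other members tested. Igfbp3, for example, stood at 521, 541, 139 and 15.7 CPM in WT, 8-week db/db, 16-week db/db and HFD. How far the shares bear on the levels was not tested.

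**Figure D1:**
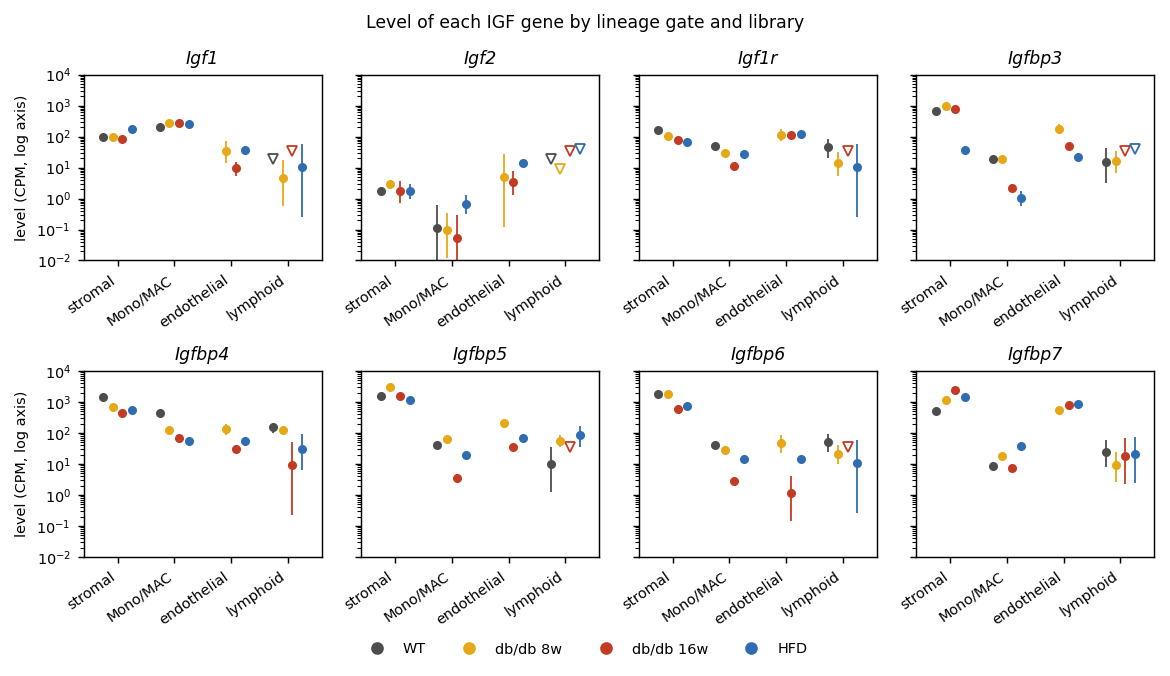
Level of each of the 8 genes in CPM on a log axis, by lineage gate, with 1 point per library and bars for 95% Poisson intervals. Open triangles stand at the upper bound where no UMI was seen, and gates under 30 cells are left out. Igfbp3 in stromal cells of HFD sits at 35.6 CPM, below the 665 to 994 CPM of the other 3 libraries, whereas Igf1 sits at 210.1 to 276 CPM in Mono/MACs of all 4.

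The ligands differed in where they were found. Igf1, the growth hormone-dependent ligand, reached 210.1 CPM in WT, 275 and 276 CPM in db/db at 8 and 16 weeks, and 247 CPM in HFD in the Mono/MAC gate. In stromal cells it stood at 94.2 CPM in WT, 98.2 and 82.0 CPM in db/db at 8 and 16 weeks, and 176 CPM in HFD. Macrophages thus held more Igf1 per UMI than stromal cells in each library, with a level in Mono/MACs of 141% of the stromal one in HFD and 337% in 16-week db/db. In lymphoid cells, a type that serves here as a gauge of free RNA, no Igf1 UMI was found in WT (35 cells, upper bound 18.5 CPM) or 16-week db/db (48 cells, upper bound 34.0 CPM), and 4.72 CPM was found in 8-week db/db and 10.4 CPM in HFD. The median depth of the lymphoid cells was 1723.5 to 5162 UMIs, against 4820 to 5738 in Mono/MACs. Barcodes with many marker UMIs of other lineages were kept out of the lymphoid gate, so this gauge can understate free RNA.

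No Mono/MAC difference from WT in Igf1 reached 2-fold. The log2 ratio was 0.39 (0.31 to 0.47) in 8-week db/db, 0.40 (0.32 to 0.47) in 16-week db/db and 0.23 (0.15 to 0.32) in HFD. The macrophage subsets behind these values were not the same. Perivascular-type macrophages (Lyve1, Folr2, Cd163, F13a1, Cbr2) made up 91.3% of the Mono/MAC gate in WT, 52.9% in 8-week db/db, 17.2% in 16-week db/db and 9.76% in HFD. Lipid-associated macrophages (Trem2, Gpnmb, Spp1, Cd9, Atp6v0d2, Mmp12) made up 2.38%, 31.6%, 67.8% and 71.5% in that order. The summed perivascular markers in perivascular-type cells were 4833 CPM in WT and 5470 and 5193 CPM in db/db at 8 and 16 weeks. In the 180 such cells of HFD they were 1668 CPM. HFD perivascular-type cells are thus not like for like with those of WT, here or below. In perivascular-type cells Igf1 stood at 223 CPM in WT, 338 and 433 CPM in db/db at 8 and 16 weeks, and 252 CPM in HFD. In lipid-associated cells it stood at 66.4 CPM in WT, where only 31 such cells were found, and at 226, 266 and 253 CPM in 8-week db/db, 16-week db/db and HFD. Within 8-week db/db and 16-week db/db the lipid-associated cells were thus below the perivascular-type ones, with log2 ratios of -0.58 (-0.66 to -0.50) and -0.70 (-0.82 to -0.58). In HFD the ratio was 0.01 (-0.19 to 0.22). Igf1 was found in 53.6% to 65.9% of lipid-associated cells in the 3 libraries of obese mice, and in 0% to 2.94% of lymphoid cells there. The depth of these cells differed, with medians of 6733 to 7650 UMIs in lipid-associated cells and 1723.5 to 2683 in lymphoid cells. Among cells thinned to 1000 UMIs the shares with Igf1 were 20.5% to 22.9% and 0% to 0.719%.

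Among stromal cells, Igf1 belonged more to the committed preadipocytes (Col15a1, Col4a1, Col4a2, Lpl, Pparg) than to the Pi16 and Dpp4 progenitors. Committed cells held 175 CPM in WT, 121 and 82.5 CPM in db/db at 8 and 16 weeks, and 191 CPM in HFD. Progenitors held 61.4 CPM in WT, 29.99 CPM in 8-week db/db and 34.3 CPM in HFD, whereas 16-week db/db had 27 such cells and 3 UMIs. Committed cells of 16-week db/db were the lowest of the 4, 2.12-fold below WT (log2 ratio -1.09, -1.26 to -0.91), and the progenitors of 8-week db/db were 2.05-fold below those of WT. The stromal gate as a whole showed log2 ratios of -0.20 in 16-week db/db and 0.06 in 8-week db/db. Its share of progenitors was 64.6% in WT, 29.7% in 8-week db/db, 2.47% in 16-week db/db and 10.7% in HFD.

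Igf2, the fetal ligand that is silenced in most adult tissues, was low. It stood at 1.80 CPM in WT, 2.95 and 1.72 CPM in db/db at 8 and 16 weeks, and 1.77 CPM in HFD in stromal cells, and at 0.0535 to 0.677 CPM in Mono/MACs. Among lineage gates of at least 50 cells its highest level was in the endothelium of HFD. There Igf2 reached 14.0 CPM (89 UMIs), against 3.498 CPM (6 UMIs) in 16-week db/db, a log2 ratio of 2.002 (0.82 to 3.49). Within the HFD endothelial gate, 20 cells with markers of larger vessels (Vwf, Vcam1, Selp and 6 further genes) held 28 of the 89 UMIs, which is 394 CPM (262 to 569), and 40% of them held an Igf2 UMI. The 1221 capillary cells held 52 UMIs, 8.55 CPM. Only 6 larger-vessel cells were found in 16-week db/db, with no Igf2 UMI and an upper bound of 816 CPM, so the libraries cannot be compared in these cells.

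Igf1r, the receptor of both ligands, was found in stromal and in endothelial cells at levels of the same order. In stromal cells it stood at 158 CPM in WT, 104 and 78.8 CPM in db/db at 8 and 16 weeks, and 68.3 CPM in HFD, so that WT lay above the other 3. The log2 ratio to WT was -0.61 (-0.67 to -0.54) in 8-week db/db, -1.01 (-1.17 to -0.84) in 16-week db/db and -1.21 (-1.34 to -1.09) in HFD. The same order held within committed cells, at 132, 87.7, 77.4 and 62.7 CPM, where HFD was 2.11-fold below WT. In progenitors the values were closer together, at 167 CPM in WT, 139.8 CPM in 8-week db/db and 129 CPM in HFD. Endothelial cells held 115 CPM in 16-week db/db and 119 CPM in HFD, which did not differ beyond counting error (log2 ratio 0.06, -0.17 to 0.29). Mono/MACs held 48.4 CPM in WT, 28.4 and 10.8 CPM in db/db at 8 and 16 weeks, and 26.6 CPM in HFD. The lymphoid gate, with 0 to 9 Igf1r UMIs per library, held 45.1 CPM (20.6 to 85.7) in WT and 10.4 CPM (0.262 to 57.7) in HFD, which overlap the Mono/MAC values. Whether reads from introns were counted is not settled, and for a gene with introns as long as those of Igf1r this could change the level.

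The binding proteins made up the bulk of the IGF transcripts and were mainly stromal. Each captured transcript gives a single 3′ tag whatever its length, so UMIs of different genes need no length correction. Differences in capture between genes were not measured, so shares between genes describe counted UMIs. The 5 genes together reached 6011 CPM in the stromal gate of WT, 7678 CPM in 8-week db/db, 5807 CPM in 16-week db/db and 3916 CPM in HFD. At the level of single genes the libraries differed more. Of the 7 members tested in stromal cells, 2 were at least 2-fold from WT in 8-week db/db (Igfbp7 higher, Igfbp4 lower), against 6.66% of all genes. In 16-week db/db 4 were (Igfbp7 higher, and Igf1r, Igfbp4 and Igfbp6 lower), against 27.4% of genes, and in HFD 5 were (Igfbp7 higher, and Igf1r, Igfbp3, Igfbp4 and Igfbp6 lower), against 17.1%. The median log2 ratio of the 7 was 0.06, -0.20 and -1.21 in 8-week db/db, 16-week db/db and HFD, where that of all genes was 0.02, -0.02 and 0.07. The 3 comparisons share the WT library.

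**Figure D2:**
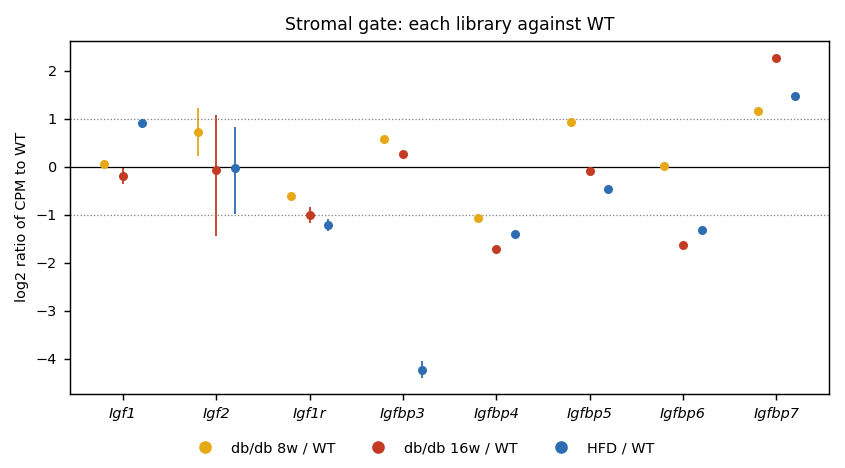
Log2 ratio of the CPM of each gene in the stromal gate to that of WT, for 8-week db/db, 16-week db/db and HFD, with exact conditional binomial 95% intervals, many of them smaller than the point. Dotted lines stand at 2-fold. Igfbp3 in HFD lies at -4.22, and Igfbp7 lies above 1 in all 3 libraries.

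The largest of the stromal differences from WT was that of Igfbp3 in HFD. Stromal Igfbp3, the carrier that also acts on adipogenesis, stood at 665 CPM in WT and at 994 and 794 CPM in db/db at 8 and 16 weeks, but at 35.6 CPM in HFD. This is 18.7-fold below WT, with a log2 ratio of -4.22 (-4.40 to -4.05), rank 18 from the lowest of 8946 genes tested. The share of stromal cells with an Igfbp3 UMI was 56.6%, 56.0% and 55.0% in WT, 8-week db/db and 16-week db/db and 7.86% in HFD. After each cell was thinned to 1000 UMIs these shares were 30.2%, 40.1%, 39.7% and 3.01%, with HFD again the lowest. The 2 db/db libraries stayed within 2-fold of WT, at log2 ratios of 0.58 and 0.26.

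The Igfbp3 difference was present in both stromal sub-gates. Committed cells held 1329 CPM in WT, 1359.7 and 800.0 CPM in db/db at 8 and 16 weeks, and 35.4 CPM in HFD, 37.6-fold below WT (log2 ratio -5.23, -5.42 to -5.05). Progenitors held 365 CPM in WT, 210.1 and 165 CPM in db/db at 8 and 16 weeks, and 22.9 CPM in HFD, 16.0-fold below WT (log2 ratio -4.00, -4.80 to -3.30). Other gates showed low Igfbp3 in HFD too. The 21 mural cells of HFD held no Igfbp3 UMI (upper bound 52.9 CPM), whereas the 39 of 16-week db/db held 672 CPM (476 to 923). Endothelial cells held 21.1 CPM in HFD and 49.6 CPM in 16-week db/db, and barcodes that met more than 1 gate held 17.9 CPM in HFD against 253 to 461 CPM elsewhere. Without the mitochondrial limit, which removed most HFD barcodes, the stromal log2 ratio was -4.12. The lymphoid gate had 0 to 7 Igfbp3 UMIs per library, and 0% to 8.57% of its cells held one.

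Igfbp5 and Igfbp7 marked opposite ends of the stroma. Igfbp5, which is deposited in matrix, was higher in progenitors than in committed cells in each library, by log2 1.08 (1.05 to 1.12) in WT, 1.65 (1.62 to 1.67) in 8-week db/db, 1.404 (1.21 to 1.59) in 16-week db/db and 3.90 (3.84 to 3.96) in HFD. Igfbp7 was lower in progenitors, by log2 -3.03 (-3.08 to -2.98) in WT, -2.01 (-2.07 to -1.96) in 8-week db/db, -1.31 (-1.69 to -0.95) in 16-week db/db and -3.50 (-3.80 to -3.22) in HFD. Igfbp4 and Igfbp6 were progenitor-high in each library as well, and Igfbp3 was committed-high in all but HFD, where its interval spanned 0 (-1.46 to 0.10). Cells were assigned by other genes, yet they were grouped by their own transcripts, so these sub-gate differences are a description. The sub-gates were not equally marked. Summed progenitor markers in progenitors were 5836 CPM in WT, 7498 and 5123 CPM in db/db at 8 and 16 weeks, and 9874 CPM in HFD. Summed committed markers in committed cells were 6967 CPM in WT, 9119 and 9678 CPM in db/db at 8 and 16 weeks, and 9679 CPM in HFD.

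**Figure D3:**
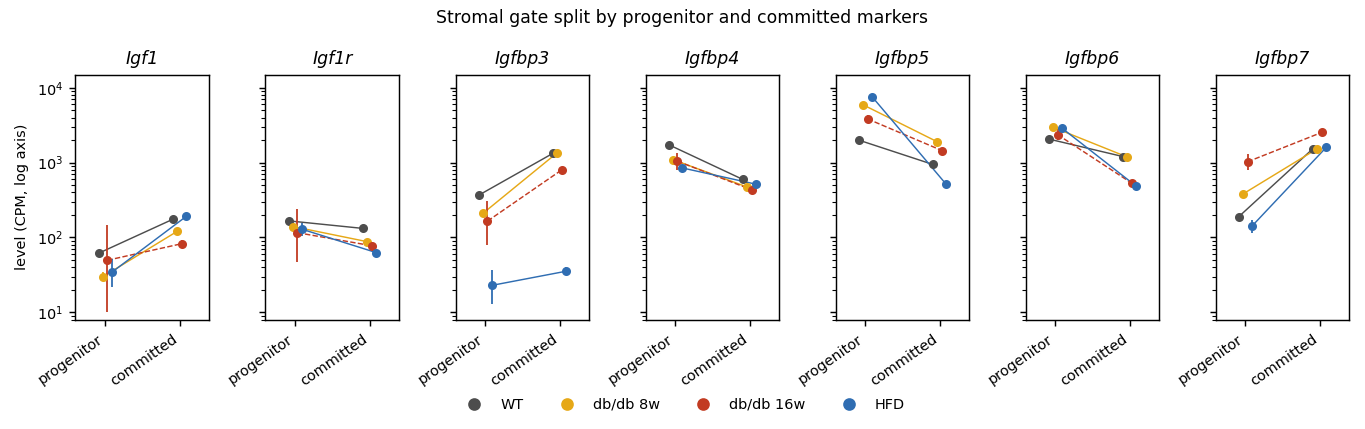
Level in CPM on a log axis of 7 of the genes in progenitor and committed sub-gates of the stromal gate, with 1 line per library, dashed for 16-week db/db with its 27 progenitors, and bars for 95% Poisson intervals. Igfbp5 reaches 7616 CPM in HFD progenitors, and Igfbp7 is higher in committed cells in each library.

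Progenitor Igfbp5 was higher in the libraries of obese mice than in WT. It stood at 1999.7 CPM in WT, 5915 and 3834 CPM in db/db at 8 and 16 weeks, and 7616 CPM in HFD, which is 2.96-fold above WT in 8-week db/db (log2 ratio 1.56, 1.55 to 1.58) and 3.81-fold in HFD (1.93, 1.89 to 1.97). Committed cells did not share this order. They held 943 CPM in WT, 1891 and 1449 CPM in db/db at 8 and 16 weeks, and 510.0 CPM in HFD, with a log2 ratio to WT of 1.004 (0.97 to 1.04) in 8-week db/db and -0.89 (-0.95 to -0.83) in HFD. In the whole stromal gate the values were 1585, 3018, 1497 and 1155 CPM, none 2-fold from WT. With equal weights of progenitors and committed cells the log2 ratio to WT was 1.41 in 8-week db/db and 1.47 in HFD, against 0.93 and -0.46 in the gate as it was, so the HFD direction turned. The 16-week db/db progenitor value rests on 27 cells. In HFD the progenitor values rest on 156 cells, whose summed progenitor markers were 9874 CPM against 5836 CPM in WT. How far such marker differences bear on ratios within sub-gates or with equal weights was not tested.

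Stromal Igfbp7 stood at 524 CPM in WT, 1172 and 2499 CPM in db/db at 8 and 16 weeks, and 1459 CPM in HFD. The log2 ratios to WT were 1.16 (1.13 to 1.19), 2.25 (2.22 to 2.29) and 1.48 (1.44 to 1.51). Most of this difference was not seen within committed cells. They held 1534 CPM in WT, 1538 and 2533 CPM in db/db at 8 and 16 weeks, and 1603 CPM in HFD, so 8-week db/db and HFD had log2 ratios of 0.00 and 0.06, and 16-week db/db was 1.65-fold above it. Progenitors held 188 CPM in WT, 381 and 1025 CPM in db/db at 8 and 16 weeks, and 142 CPM in HFD, so 8-week db/db was 2.02-fold above WT there (log2 ratio 1.02, 0.95 to 1.09) and HFD was below it (-0.41, -0.71 to -0.12). When progenitors and committed cells were given equal weight, the log2 ratio was 0.16 in 8-week db/db and 0.02 in HFD. The share of committed cells in the stromal gate was 21.1% in WT, 58.7% and 94.9% in db/db at 8 and 16 weeks, and 87.0% in HFD.

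Igfbp4, the inhibitory binding protein, was lower in stromal cells of each obese library. It stood at 1452 CPM in WT, 692 and 443 CPM in db/db at 8 and 16 weeks, and 548 CPM in HFD. The log2 ratios to WT were -1.07 (-1.09 to -1.04), -1.71 (-1.78 to -1.64) and -1.40 (-1.45 to -1.36). Within progenitors the level was 1736, 1094, 1041 and 849.7 CPM in WT, 8-week db/db, 16-week db/db and HFD, and within committed cells it was 594, 470.0, 433 and 513 CPM. WT was the highest in both, but only HFD progenitors were 2-fold below it (log2 ratio -1.03, -1.15 to -0.91). With equal weights the ratio was -0.58 in 8-week db/db and -0.77 in HFD.

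Igfbp6, the IGF2-preferring binding protein, also differed between the sub-gates. In the stromal gate it stood at 1784 CPM in WT, 1802 and 575 CPM in db/db at 8 and 16 weeks, and 718 CPM in HFD, so 16-week db/db was 3.10-fold and HFD 2.48-fold below WT. Progenitors held 2065, 2966, 2363 and 2884 CPM. The log2 ratio to WT was 0.52 (0.50 to 0.55) in 8-week db/db and 0.48 (0.42 to 0.55) in HFD. The 16-week db/db progenitors, with 27 cells and 143 UMIs, were too few to be compared. Committed cells held 1203, 1183, 529.9 and 482 CPM, with log2 ratios of -0.02, -1.18 (-1.25 to -1.11) and -1.32 (-1.38 to -1.26). With equal weights the HFD ratio was 0.04.

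Members at least 2-fold from WT were also counted within the sub-gates. Among committed cells they were 1 of 7 in 8-week db/db (Igfbp5 higher), against 6.31% of genes, 2 of 7 in 16-week db/db (Igf1 and Igfbp6 lower), against 25.7%, and 3 of 7 in HFD (Igf1r, Igfbp3 and Igfbp6 lower), against 15.8%. Among progenitors they were 3 of 7 in 8-week db/db (Igfbp5 and Igfbp7 higher, Igf1 lower), against 5% of genes, and 3 of 7 in HFD (Igfbp5 higher, Igfbp3 and Igfbp4 lower), against 15.8%. The 16-week db/db progenitors were too few to be compared.

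The mixture of binding protein transcripts differed accordingly. In WT stromal cells Igfbp6 gave 29.7% of the summed UMIs of the 5 genes, Igfbp5 26.4%, Igfbp4 24.2%, Igfbp3 11.1% and Igfbp7 8.72%. In 8-week db/db Igfbp5 led with 39.3%, and in 16-week db/db and HFD Igfbp7 led with 43.0% and 37.3%. Igfbp3 gave 12.9% in 8-week db/db and 13.7% in 16-week db/db but 0.910% (0.807% to 1.02%) in HFD. Within HFD the sub-gates differed widely, as Igfbp5 gave 66.1% of the sum in progenitors and Igfbp7 gave 51.0% in committed cells.

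**Figure D4:**
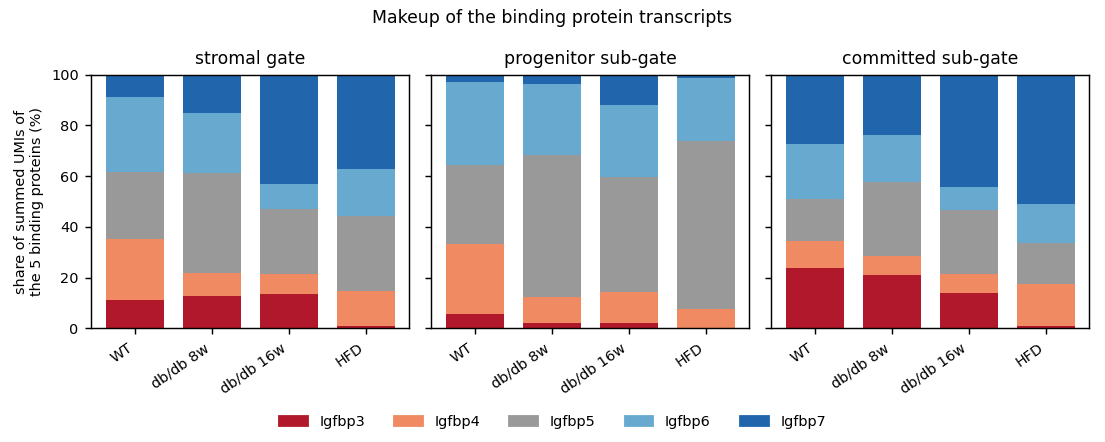
Share in percent of the summed UMIs of Igfbp3, Igfbp4, Igfbp5, Igfbp6 and Igfbp7 given by each gene, in the stromal gate and its progenitor and committed sub-gates, with 1 bar per library. The Igfbp3 part is 0.910% in the HFD stromal gate against 11.1% to 13.7% in the other 3 libraries, and the Igfbp7 part is largest in committed cells of HFD at 51.0%.

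In Mono/MACs, Igfbp4 stood apart from the other binding proteins. It stood at 453 CPM in WT, 123 and 68.9 CPM in db/db at 8 and 16 weeks, and 54.1 CPM in HFD, which was 31.2%, 17.8%, 15.5% and 9.86% of the stromal level of the same library. Igfbp3, Igfbp5, Igfbp6 and Igfbp7 stood at only 0.240% to 2.96% of theirs. The part of free RNA in the Igfbp4 level was not tested. Perivascular-type cells held 489 CPM in WT, 227 and 346 CPM in db/db at 8 and 16 weeks, and 135 CPM in HFD. Lipid-associated cells held 31.8, 39.3, 39.0 and 45.2 CPM in that order. The perivascular-type cells of HFD held their own markers at 1668 CPM against 4833 CPM in WT, and the bearing on Igfbp4 was not tested. Within perivascular-type cells the log2 ratio of Igfbp4 to WT was -1.11 (-1.19 to -1.03) in 8-week db/db, -0.50 (-0.63 to -0.37) in 16-week db/db and -1.85 (-2.14 to -1.58) in HFD, which are smaller in size than the -1.88, -2.72 and -3.07 of the whole Mono/MAC gate, whose share of perivascular-type cells moves with it. The lymphoid gate held 150.4 CPM (30 UMIs) in WT, 123 CPM (52 UMIs) in 8-week db/db, 9.21 CPM (1 UMI) in 16-week db/db and 31.1 CPM (3 UMIs) in HFD, and as T cells can express Igfbp4 it is no clean gauge for this gene.

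**Figure D5:**
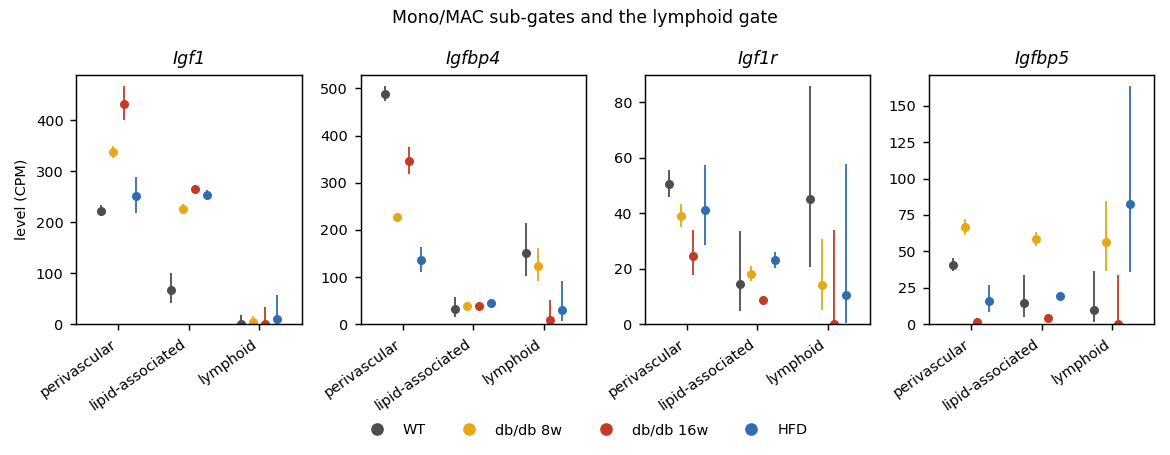
Level in CPM of Igf1, Igfbp4, Igf1r and Igfbp5 in perivascular-type and lipid-associated macrophages and in the lymphoid gate, with 1 point per library and 95% Poisson intervals. Axes start at 0 and differ between panels. Igfbp4 is at 135 to 489 CPM in perivascular-type and at 31.8 to 45.2 CPM in lipid-associated cells, while Igf1 is high in both apart from 66.4 CPM in the 31 lipid-associated cells of WT.

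By count, 2 of 7 members were at least 2-fold from WT in the Mono/MAC gate of 8-week db/db (Igfbp7 higher, Igfbp4 lower), against 11.1% of genes. In 16-week db/db they were 5 of 6 (Igf1r, Igfbp3, Igfbp4, Igfbp5 and Igfbp6 lower), against 45.5%, and in HFD 5 of 7 (Igfbp7 higher, and Igfbp3, Igfbp4, Igfbp5 and Igfbp6 lower), against 24%. Apart from Igf1r and Igfbp4 these are genes at 1.05 to 64.1 CPM. The lymphoid gate held 0 to 82.9 CPM of the same genes, and summed stromal markers in the Mono/MAC gate were 209.7 CPM in WT, 109 and 12.0 CPM in db/db at 8 and 16 weeks, and 121 CPM in HFD. Members tested in the Mono/MAC gate had a median log2 ratio of 0.09, -2.88 and -1.01 in order of the comparisons, against 0.03, -0.13 and 0.17 for all genes. Igfbp7 in HFD was 4.19-fold above WT. The part of free RNA in these low values was not tested. In perivascular-type cells alone the counts were 2 of 7 in 8-week db/db (Igfbp7 higher, Igfbp4 lower, 4.81% of genes), 4 of 6 in 16-week db/db (Igf1r, Igfbp3, Igfbp5 and Igfbp6 lower, 31% of genes) and 5 of 7 in HFD (Igfbp7 higher, and Igfbp3, Igfbp4, Igfbp5 and Igfbp6 lower, 22.5% of genes). The HFD perivascular-type cells held perivascular markers at 1668 CPM, against 4833 CPM in WT.

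In vessels Igfbp7, known as an endothelial matrix protein, was the leading binding protein. Endothelial cells held 768 CPM in 16-week db/db and 846 CPM in HFD, a log2 ratio of 0.14 (0.05 to 0.23), although the median depth of those cells was 1011 and 4378 UMIs. The 39 mural cells of 16-week db/db held 2672 CPM and the 21 of HFD held 1118 CPM. Between the endothelial gates 4 of 8 members were at least 2-fold apart, against 29.1% of genes, with Igf1, Igf2 and Igfbp6 higher and Igfbp3 lower in HFD. All 4 stood under 50 CPM in both libraries. Summed stromal markers in these gates were 44.3 CPM in 16-week db/db and 162 CPM in HFD, summed Mono/MAC markers 53.6 and 337 CPM, and summed adipocyte markers 6.995 and 329 CPM. The part of free RNA or mixed droplets in these 4 differences was not tested. The median log2 ratio was 0.91 for the members and 0.31 for all genes.

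Other genes of the IGF axis were counted as a list of 21 receptors, adaptors, further binding proteins, proteases and growth hormone genes. In stromal cells 12 reached 10 CPM in 8-week db/db or WT, with 1 at least 2-fold higher (H19, the imprinted neighbour of Igf2, at 12.97 against 5.91 CPM) and none lower, where 6.66% of all genes were at least 2-fold from WT in either direction. In 16-week db/db 1 of 12 was higher and 4 were lower (Insr, Irs1, Ghr and Stat5b), where 27.4% of all genes were that far from WT. In HFD 2 of 13 were higher and none lower, where 17.1% of all genes were that far from WT. The 2 were H19 and the insulin receptor adaptor Grb14, which stood at 42.1 CPM against 2.29 CPM in WT and at 18.2 CPM in 16-week db/db. Within committed cells Grb14 stood at 8.88 CPM in WT, 6.25 and 18.7 CPM in db/db at 8 and 16 weeks, and 47.2 CPM in HFD. Its log2 ratio to WT there was 2.41 in HFD and 1.08 in 16-week db/db, against 4.20 and 2.99 in the whole stromal gate. Ghr, the growth hormone receptor, stood at 116 CPM in WT, 74.3 and 57.6 CPM in db/db at 8 and 16 weeks, and 66.8 CPM in HFD. In Mono/MACs 6 genes of the list were tested, and Igf2r, the receptor that clears IGF2 and carries lysosomal enzymes, was at least 2-fold above WT in all 3 libraries, at 12.1 CPM in WT, 72.9 and 89.7 CPM in db/db at 8 and 16 weeks, and 129 CPM in HFD. Within perivascular-type cells Igf2r stood at 8.80 CPM in WT, 31.7 and 24.1 CPM in db/db at 8 and 16 weeks, and 24.2 CPM in HFD, with log2 ratios to WT of 1.85, 1.45 and 1.46 against 2.596, 2.90 and 3.41 in the whole gate. Listed genes that were tested had median log2 ratios of -0.21, -0.13 and -0.23 in stromal cells of 8-week db/db, 16-week db/db and HFD and 0.28, -0.88 and 0.0046 for those tested in Mono/MACs. No gene of the list was lower there in 8-week db/db or HFD, and 3 were lower in 16-week db/db. Over all genes 11.1%, 45.5% and 24% were at least 2-fold from WT in Mono/MACs of 8-week db/db, 16-week db/db and HFD. Over all kept cells Igfbp1, Igfbp2, Igfbpl1 and Igfals stayed under 10 CPM in every library. Igfbp2 had 94 UMIs in WT, 3 of them in stromal cells and 0 in Mono/MACs, against 2 UMIs in each other library.

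The 8 genes were also set against all others over 12 profiles, each a library and gate of at least 50 cells, by Pearson's r of log2(CPM + 1). The profiles share libraries and depth, so r is a description. Igfbp7 was most like Hspg2 (r = 0.99), Cdc42ep5 and Atp9a, Igfbp6 most like Fndc1 (0.99), Pamr1 and Pcolce2, and Igfbp5 most like Tnxb (0.99), Bmp1 and Lhfp. Igfbp4 was most like Sfrp2 (0.97), Cxcl13 and Dnm1, and Igfbp3 most like 2310022B05Rik (0.94), Ctdsp2 and Chp1. Igf1 was most like Hexa (0.98), Plxnb2 and Cndp2, and Igf1r most like Ccn1 (0.98), Zswim8 and Tns2. Igf2, which did not exceed 14.0 CPM in any profile, was most like Tsnax (0.97), Filip1 and Gabpa. Among the members themselves Igfbp5 and Igfbp6 (0.94) and Igfbp4 and Igfbp6 (0.93) were closest, whereas Igf1 had an r between -0.33 and 0.30 with the other 7.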

How the data were processed

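Single cells of BAT SVF were profiled in 4 libraries (WT, 8-week db/db, 16-week db/db, HFD). The authors deposited raw UMI counts (whole numbers) of 10x Genomics 3′ libraries, aligned to mm10 with Cell Ranger. The submitters' processing notes name version 7.1.0 and the headers of the count files 6.0.0, so it is not settled whether intronic reads were counted. Total counts per library were 51357400, 61828295, 28504069 and 57279299 in the order above.

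Quality limits followed the methods of the study: more than 250 but fewer than 6000 genes, more than 500 but fewer than 30000 UMIs, and a mitochondrial share below 15%. A lineage gate took barcodes with at least 3 UMIs from at least 2 of its markers, with every other lineage at most 1 part in 3 of that. Sub-gates needed 2 UMIs and at least 2 times the UMIs of the opposite list. No doublet caller was run. Barcodes that met 2 gates were called mixed and left out. Names rest on these markers alone. A level is the summed UMIs of a gene over all UMIs of the gate, in CPM. Genes with at least 10 CPM in 1 of the 2 libraries compared were tested for a 2-fold difference, with a floor of 3 counts where a gene had no UMI. Levels carry exact Poisson intervals, ratios exact conditional binomial intervals and shares exact (Clopper-Pearson) intervals, all at 95% and for counting error only. With 1 library per group no p-value was computed. The interval code was tested on simulated data. The members and gene lists were chosen with earlier results of these data known. The named genes were the 8 members, examples from the fixed IGF axis list, and for each member the 3 genes of highest Pearson correlation among the 5960 genes of at least 50 CPM in 1 profile, markers left out.

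Gene coordinates came from GENCODE vM21 (GRCm38), where 32235 of 32285 gene IDs (99.8%) were found, and promoter sequences from RefSeq. Python 3.11.15, numpy 2.4.6, scipy 1.17.1 and pandas 2.3.3 were used. Alternatives were a stricter gate, no mitochondrial limit, at least 2000 UMIs per cell, cells thinned to 1000 UMIs, the mean of each cell's CPM, centring on the median gene, other minimum levels and, added after the data were seen, the sub-gate comparisons and equal weights of progenitor and committed cells.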

Additional observations from a re-analysis of the deposited data

Results flagged for a closer look

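Igfbp5 in HFD lay on opposite sides of WT in stromal progenitors and in the Mono/MAC gate. Its log2 ratio to WT was 1.93 in stromal progenitors (7616 against 1999.7 CPM) and -1.01 in the Mono/MAC gate (19.6 against 39.5 CPM). The Mono/MAC values lie within the range of the lymphoid gate, 0 to 82.9 CPM. In committed stromal cells the log2 ratio was -0.89 and in the whole stromal gate -0.46, the same direction as in Mono/MACs. Progenitors and committed cells within the stroma thus also lay on opposite sides of WT. The difference between the progenitor and Mono/MAC ratios was not tested, as each group has 1 library.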

How the results depend on the processing

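Of 316 values of member ratios that were at least 2-fold in the main setting, recomputed under alternatives, 315 kept their sign and 293 stayed at least 2-fold. The ratios themselves were less stable. With cells thinned to 1000 UMIs, 84 tested member ratios left their main interval for counting error and 41 did not. For the mean of each cell's CPM these numbers were 41 and 29. They were 17 and 108 with at least 2000 UMIs per cell, and 28 and 97 without the mitochondrial limit. Among the 316 values the sign changed for Igfbp6 in the HFD stromal gate with equal weights of progenitors and committed cells, at a log2 ratio of 0.043. With those weights 1 member was at least 2-fold from WT in stromal cells of 8-week db/db, namely Igfbp5 (1.41), while Igfbp4 and Igfbp7 no longer were. In HFD 2 members were, Igfbp3 (-4.86) and Igfbp5, which turned from -0.46 to 1.47, while Igf1r, Igfbp4, Igfbp6 and Igfbp7 no longer were. In the Mono/MAC gate of 8-week db/db 1 member was left under the stricter gate, with at least 2000 UMIs per cell and among genes of at least 50 CPM. That minimum also left 1 member in 16-week db/db, 1 in HFD and 0 between the endothelial gates, since fewer genes are tested. Among committed cells thinned to 1000 UMIs, 0 members were left in 8-week db/db and 1 in 16-week db/db, and the stricter gate left 1 in perivascular-type cells of 8-week db/db. The cause of these changes was not tested except for the minimum level. Without the mitochondrial limit all 18 counts stayed within 1.5 times, as did the 10 counts outside the sub-gates when centred on the median gene or taken from the mean of each cell's CPM, which were not run for the sub-gates. No paired analysis was possible because each group has 1 library. Ratios resting on few cells, such as 156 HFD progenitors, carry counting error only and say nothing of the spread between mice.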
